A study of Mus musculus with 12 samples.

Results

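The nuclear genes for subunits of the respiratory chain complexes and of ATP synthase were followed in mouse cumulus cells, the granulosa cells that surround the oocyte in antral follicles. Members were chosen by gene symbol alone: Nduf subunits of complex I, Sdha to Sdhd of complex II, Uqcr genes of complex III, Cox4 to Cox8 genes of complex IV and Atp5 genes of complex V, without pseudogenes. The rule matched 88 symbols. Of these, 73 were listed in all 6 RNA libraries, against 9237 genes in all. The 72 with a mean of at least 1 FPKM were tested among 9022 genes. They comprised 36 genes of complex I, 4 of complex II, 6 of complex III, 10 of complex IV and 16 of complex V.

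All libraries came from cumulus cells of Kunming mice. Of the 6 RNA libraries, 3 were from cells that had received FSH, the gonadotropin that drives granulosa cell growth and cumulus expansion, together with fetal bovine serum (FBS) over 18 hours, called treated from here on, and 3 carried the label untreated. Animal age, the number of animals and the culture time of untreated cells are not given, and FSH was always combined with FBS, so the effects of FSH, FBS and time in culture cannot be told apart. The series' design text also describes complexes whose oocyte had been removed, and the labels do not say to which group, if any, these belong. The small-RNA samples were not analysed here.

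The respiratory chain sits in the inner mitochondrial membrane. Complexes I and II take electrons from NADH and succinate, coenzyme Q and cytochrome c carry them on through complex III, and complex IV passes them to oxygen. Complexes I, III and IV pump protons, and ATP synthase (complex V) uses their return to make ATP. Most subunits are encoded in the nucleus and imported, while a small core of complexes I, III, IV and V is encoded by mitochondrial DNA. In the follicle, cumulus cells are known to be strongly glycolytic and to pass pyruvate to the oocyte, which relies on its own mitochondria for ATP.

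Values are FPKM, a level per transcript length and library size. A gene's value is the larger of its summed first-exon and summed last-exon FPKM. Libraries 1 and 2 of each group were near repeats: the median absolute log2 difference over genes tested was 0.11 for the treated pair and 0.13 for the untreated pair, and 0.39 to 0.48 for pairs with library 3. They were averaged and counted as 1 sample, so each group had n = 2. No label ties them to separate animals or cultures, and the p-values therefore reflect the spread among these samples alone, which may be technical. Depth is unknown, since the files hold FPKM without counts. Library 3 listed 63940 transcript events in treated and 68742 in untreated cells, against 76969 to 85853 in the other libraries. Of 9022 genes, 214 (2.37%) passed limma's test at an adjusted p of 0.05, with 152 higher (1.68%) and 62 lower (0.687%) in treated cells. That split moved to 59 higher and 45 lower with libraries scaled to equal sums, to 50 and 41 with a median-of-ratios scaling, and to 105 and 80 with quantile normalization. The median log2 fold change over all genes tested was 0.24 as deposited and -0.02, 0.01 and 0.00 under these scalings. Fold changes of members are therefore also given relative to that median.

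Granulosa markers were present in all libraries, with 10 or 11 of 12 listed and a summed level of 563 to 727 FPKM in treated and 574 to 705 FPKM in untreated libraries. Single markers went in opposite directions. Of 10 tested, 4 had all treated libraries above all untreated ones (29.4% of all genes) and 4 the opposite order (9.54%). Inha was at 276, 282 and 279 FPKM in treated and 349.7, 360 and 502.5 FPKM in untreated libraries. Wt1 was at 0.4188, 0.1445 and 0.0063 FPKM against 8.035, 9.035 and 3.73 FPKM (-2.56 ± 0.45, limma adjusted p = 0.029). Oocyte markers, of 25, summed to 8.09, 7.75 and 30.9 FPKM in treated libraries 1, 2 and 3. In the untreated ones they summed to 29.0, 31.1 and 37.6 FPKM, with 3, 3 and 9 against 17, 14 and 13 listed. The 3 listed in treated libraries 1 and 2 were Tle6 (5.56 and 4.62 FPKM), Kit (2.266 and 2.965 FPKM) and Gdf9 (0.26 and 0.16 FPKM). Gdf9 was at 8.77 FPKM in treated library 3 and at 4.16 to 6.06 FPKM in untreated libraries. Tle6 went the other way, at 7.42 FPKM in treated library 3 and 1.49 to 4.24 FPKM in untreated libraries. The theca and stroma list, of 12, summed to 28.6 to 34.8 FPKM in treated and to 68.2 to 89.8 FPKM in untreated libraries. Of these sums, Acta2 gave 13.6 to 17.5 FPKM and 58.3 to 67.7 FPKM. Dcn was listed only in untreated libraries, at 7.855, 7.015 and 2.99 FPKM. Ptch1 went the other way, at 8.945, 10.1 and 10.3 FPKM in treated and 7.516, 6.451 and 2.337 FPKM in untreated libraries. The leukocyte list, of 15, summed to 2.96 to 7.68 FPKM in treated and 9.11 to 12.9 FPKM in untreated libraries, with 4 to 8 and 4 to 7 listed. The endothelial list, of 10, summed to 2.70 to 3.38 FPKM (2 listed) and 0.022 to 0.98 FPKM (1 to 3 listed). The sums of the leukocyte and endothelial lists did not overlap between groups. Of the endothelial sums, Cdh5 gave 2.06, 2.63 and 2.58 FPKM in treated libraries and was unlisted in untreated ones. Pecam1 was at 1.32 FPKM in treated library 1 and 0.4385 FPKM in untreated library 2. Esam was highest in untreated library 3 (0.984 FPKM), and Vwf was listed only in untreated libraries 1 and 2. The erythroid list, of 7, summed to 0.28 to 1.93 FPKM and 0.39 to 0.73 FPKM, which overlap. The part of these other cells in the results below was not tested, and in bulk RNA fewer cells of a type and less RNA per cell cannot be told apart.

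None of the 72 subunit transcripts passed limma's adjusted threshold, in either direction. Most of the estimates lay above 0, with 64 of 72 positive against 67.3% of all genes, and 55 of 72 lay above the median of all genes. The number above 0 fell to 50, 53 and 43 with libraries scaled to equal sums, by median of ratios and by quantiles. The median log2 fold change was 0.51 over the members and 0.24 over all genes. Without treated library 3 it was 0.10 over the members, with 43 of 72 positive, and 0.26 over all genes. At an unadjusted p under 0.05, 8 members were higher and 1 was lower, that is 12.5% of members against 16.5% of all genes. All 3 treated libraries lay above all 3 untreated ones in 22 members (30.6%), which is close to the share of all genes (29.4%), and the opposite order occurred in 0 members against 9.54% of all genes.

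A fit with the replicate number as a block, which here sets library 3 against libraries 1 and 2, called 11 members, 10 higher and 1 lower. That is 15.3% of members, against 16.0% of all genes in the same fit. The 10 were Ndufv1, Ndufs7, Ndufs8, Ndufa1, Ndufa12, Ndufc1, Uqcrq, Uqcr11, Cox5a and Atp5g1, and the 1 lower was Atp5e, the epsilon subunit of ATP synthase. The share of members called with the block was thus near that of all genes. Such a block takes the difference of library 3 from libraries 1 and 2 as equal in both groups. Over members, the median of that difference was 0.94 on the log2 scale in treated and 0.36 in untreated cells. With n = 2 in each group, the block also left fewer degrees of freedom for each gene's error than the main fit.

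**Figure D1:**
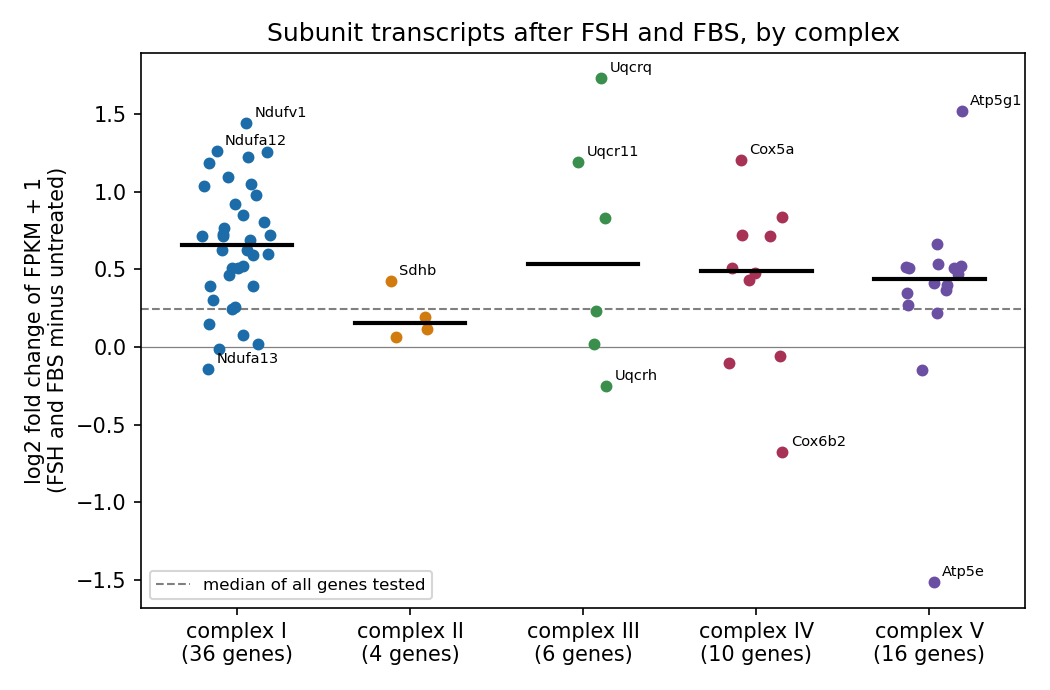
Log2 fold change of FPKM + 1 between treated (FSH and FBS) and untreated cells for the 72 members tested, 1 point per gene, grouped by complex, with the median of each complex as a bar. The dashed line marks the median of all genes tested (0.24). The median was 0.66 in complex I and 0.15 in complex II, and Atp5e lay lowest at -1.51.

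The summed level of the tested members was 6753, 6724 and 12770 FPKM in treated libraries 1, 2 and 3, and 5898, 5885 and 7476 FPKM in the untreated ones. Treated library 3 stands apart from the others, which lay between 5885 and 7476 FPKM. The group means were 9755 ± 4266 FPKM and 6684 ± 1120 FPKM (SD, n = 2). The ratio of the sums was 1.14 in libraries 1 and 2 and 1.71 in library 3. The summed FPKM of all genes was 274528, 273359 and 390969 in treated libraries 1, 2 and 3. In untreated libraries it was 265079, 264904 and 268062, so the total of treated library 3 was larger as well. The members listed in each library, tested or not, held 2.46% to 3.27% of its summed FPKM over all genes in treated libraries. In untreated libraries they held 2.23% to 2.84%, so the groups overlap in this share.

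The transcript with the highest mean in untreated cells was Cox7c, a small structural subunit of complex IV, at 345 FPKM, and Uqcrh and Atp5b followed at 342 and 341 FPKM. In treated cells, Atp5b, the catalytic beta subunit of ATP synthase, had the highest mean (488 FPKM) and Cox6b1 was next at 402 FPKM. The neighbours named here differed by less than their spread between samples. Sdhc, Atp5s, Cox6b2 and Cox4i2 were the lowest of the 72 in both groups.

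In complex I, the NADH dehydrogenase that links NADH oxidation to proton pumping, 34 of 36 members had a positive log2 fold change and the median was 0.66, or 0.41 above the median of all genes. Without treated library 3 the median was 0.15 over complex I and 0.26 over all genes. The 7 conserved core subunits encoded in the nucleus, which carry the flavin, the iron-sulfur clusters and the quinone site, had a median of 0.52 and were all positive. The 29 accessory subunits, which surround that core, had a median of 0.69, with 27 positive. The difference between core and accessory subunits was not tested. The sum over complex I was 2559, 2641 and 5281 FPKM in treated and 2025, 2043 and 2782 FPKM in untreated libraries.

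Ndufv1, the core subunit that binds NADH and the flavin, was at 39.8, 34.1 and 86.8 FPKM in treated libraries 1 to 3 and 9.33, 9.49 and 42.4 FPKM in untreated ones. Within each library number the treated value was higher, while untreated library 3 lay above treated libraries 1 and 2, so the groups overlap. The log2 fold change was 1.44 ± 0.68 (SE, limma adjusted p = 0.34; adjusted p = 0.0099 with the replicate block), and it was 0.84 without treated library 3 and 2.47 without untreated library 3. Ndufa12, an accessory subunit on the arm that holds the flavin, was at 74.7, 72.3 and 67.4 FPKM against 27.4, 38.2 and 25.2 FPKM. Its groups did not overlap and library 3 did not stand apart. The group means were 70.5 ± 4.31 and 29.0 ± 5.36 FPKM (SD, n = 2), and the log2 fold change was 1.26 ± 0.35 (SE, limma adjusted p = 0.13; 0.019 with the block).

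Further core subunits differed among themselves. Ndufs8, which carries iron-sulfur clusters near the quinone site, was at 93.5, 92.3 and 178 FPKM in treated and 50.4, 51.7 and 58.4 FPKM in untreated libraries. Ndufs7, which carries the last cluster of the chain, was at 47.9, 48.9 and 136 FPKM against 28.8, 37.5 and 34.1 FPKM. In both, all treated libraries lay above all untreated ones and treated library 3 was the highest. Their log2 fold changes were 1.22 ± 0.43 and 1.25 ± 0.50 (SE; limma adjusted p = 0.22 and 0.27, and 0.038 and 0.040 with the block). Ndufs1, the largest core subunit, was at 30.3, 26.3 and 22.4 FPKM against 28.3, 23.7 and 16.8 FPKM. Its groups overlap, with a log2 fold change of 0.26 ± 0.37. Ndufs3 and Ndufv2 lay between, at 0.52 ± 0.36 and 0.51 ± 0.41.

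Among accessory subunits, Ndufa1 of the membrane arm was at 109, 109 and 188 FPKM in treated and 66.1, 62.8 and 61.0 FPKM in untreated libraries. Its log2 fold change was 1.18 ± 0.41 (limma adjusted p = 0.21; 0.049 with the block). Ndufc1, also of the membrane arm, was at 24.8, 30.6 and 58.6 FPKM against 17.5, 15.2 and 22.5 FPKM, with 1.03 ± 0.44 (limma adjusted p = 0.29; 0.040 with the block). In both the groups did not overlap. At the other end, Ndufa13, also known as GRIM-19, was at 42.7, 117 and 112 FPKM against 80.6, 89.96 and 128 FPKM. Its treated libraries 1 and 2 differed by more than the groups did, and the log2 fold change was -0.14 ± 0.41. Ndufa6, an accessory subunit of the LYR family, had -0.01 ± 0.48. Ndufa4, named for complex I but since assigned to complex IV, was at 237, 219 and 403 FPKM against 133, 121 and 185 FPKM, without overlap, with a log2 fold change of 0.98 ± 0.47 (limma adjusted p = 0.35).

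Complex II, succinate dehydrogenase, is the only complex encoded wholly in the nucleus and also a TCA cycle enzyme. It had the lowest median of the 5 complexes, 0.15, which is 0.09 below the median of all genes; without treated library 3, complexes IV (-0.13) and V (-0.090) were lower than complex II (0.073). The sum over complex II was 194, 187 and 235 FPKM in treated and 189, 180 and 172 FPKM in untreated libraries. Sdha, the flavoprotein, was at 45.8, 42.0 and 41.1 FPKM against 41.9, 39.6 and 33.6 FPKM. Sdhb, the iron-sulfur subunit, was at 67.9, 68.0 and 102 FPKM against 66.2, 62.7 and 59.7 FPKM. The groups of Sdhb did not overlap, though treated libraries 1 and 2 lay under 2 FPKM above untreated library 1, and those of Sdha did. Their log2 fold changes were 0.19 ± 0.34 and 0.42 ± 0.38. The membrane anchors Sdhc and Sdhd had 0.06 ± 0.34 and 0.11 ± 0.35, smaller than their errors.

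In complex III, which passes electrons from coenzyme Q to cytochrome c, the median was 0.53 over 6 members. The 2 core proteins Uqcrc1 and Uqcrc2, which resemble processing peptidases, had log2 fold changes of 0.23 ± 0.35 and 0.02 ± 0.38. Uqcrq was at 36.4, 29.9 and 131 FPKM in treated and 16.2, 10.6 and 27.6 FPKM in untreated libraries. The groups did not overlap, and the log2 fold change was 1.73 ± 0.64 (limma adjusted p = 0.24; 0.0036 with the block). It was 0.75 without treated library 3, which leaves 1 treated sample, and at most 2.22 with another library left out. Uqcr11 was at 120, 117 and 287 FPKM against 45.6, 43.7 and 144 FPKM, so that untreated library 3 lay above treated libraries 1 and 2 (1.19 ± 0.64; adjusted p = 0.40 and 0.048 with the block). Uqcrh, the hinge protein that helps cytochrome c dock, was at 183, 189 and 436 FPKM against 295, 299 and 387 FPKM. Its direction differed between library numbers, lower in libraries 1 and 2 (-0.67) and higher in library 3 (0.17). Uqcrb, which sits near the quinone site, had 0.83 ± 0.40.

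Complex IV, cytochrome c oxidase, has many subunits that exist as isoform pairs. The median was 0.49 over 10 members, 0.25 above that of all genes, with 7 positive. Cox5a, a matrix-facing subunit, was at 121, 114 and 261 FPKM in treated and 67.6, 66.9 and 85.0 FPKM in untreated libraries. The groups did not overlap, with group means of 189 ± 101 and 76.1 ± 12.6 FPKM (SD, n = 2) and a log2 fold change of 1.20 ± 0.47 (limma adjusted p = 0.27; 0.0499 with the block). Cox6a1, the ubiquitous isoform of its pair, was at 154, 150 and 350 FPKM against 121, 121 and 137 FPKM, and Cox6b1, which faces the intermembrane space, at 261, 258 and 543 FPKM against 210, 217 and 242 FPKM. Neither pair of groups overlapped, and the log2 fold changes were 0.84 ± 0.49 and 0.72 ± 0.50. Cox7a2, the ubiquitous isoform, was lower in libraries 1 and 2 (-0.17) and higher in library 3 (1.03). Cox6c was at 204, 194 and 429 FPKM against 296, 287 and 339 FPKM, again with opposite directions (-0.55 and 0.34).

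The tissue-specific partners were low or unlisted. Cox6a2, the heart and muscle isoform, was listed only in treated libraries, at 2.80, 2.83 and 3.45 FPKM. Cox4i2, the isoform known from lung and low oxygen, was at 0.776, 0.588 and 2.85 FPKM against 0.435, 0.3202 and 1.33 FPKM, and Cox6b2, the testis isoform, at 0.599, 0.425 and 0.788 FPKM against 0.280, 2.31 and 2.02 FPKM. Cox7a1, the heart and muscle isoform, was at 0.411, 0.931 and 2.27 FPKM against 0.222, 0.411 and 1.58 FPKM and stayed below the level filter. On this per-length scale, Cox6a2, Cox6b2 and Cox7a1 lay below Cox6a1, Cox6b1 and Cox7a2 in every library that listed them. Ndufa4l2, the paralogue of Ndufa4 known from low oxygen, was listed at 0.231 FPKM in treated library 2 and 0.0656 FPKM in untreated library 1 only. Cox7a2l, a factor of supercomplex assembly, was at 28.1 and 16.1 FPKM in treated libraries 1 and 3 and at 4.34, 140 and 127 FPKM in untreated libraries, and unlisted in 1 library. Uqcr10, a small subunit of complex III, was listed in 4 libraries, from 0.0190 to 4.99 FPKM. No value was at hand for Cox4i1, Cox6c2, Cox7b2, Cox8a, Cox8b, Cox8c, Uqcrfs1, Ndufa11b, Ndufb4c and Ndufs6b, whose symbols had no rows.

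**Figure D2:**
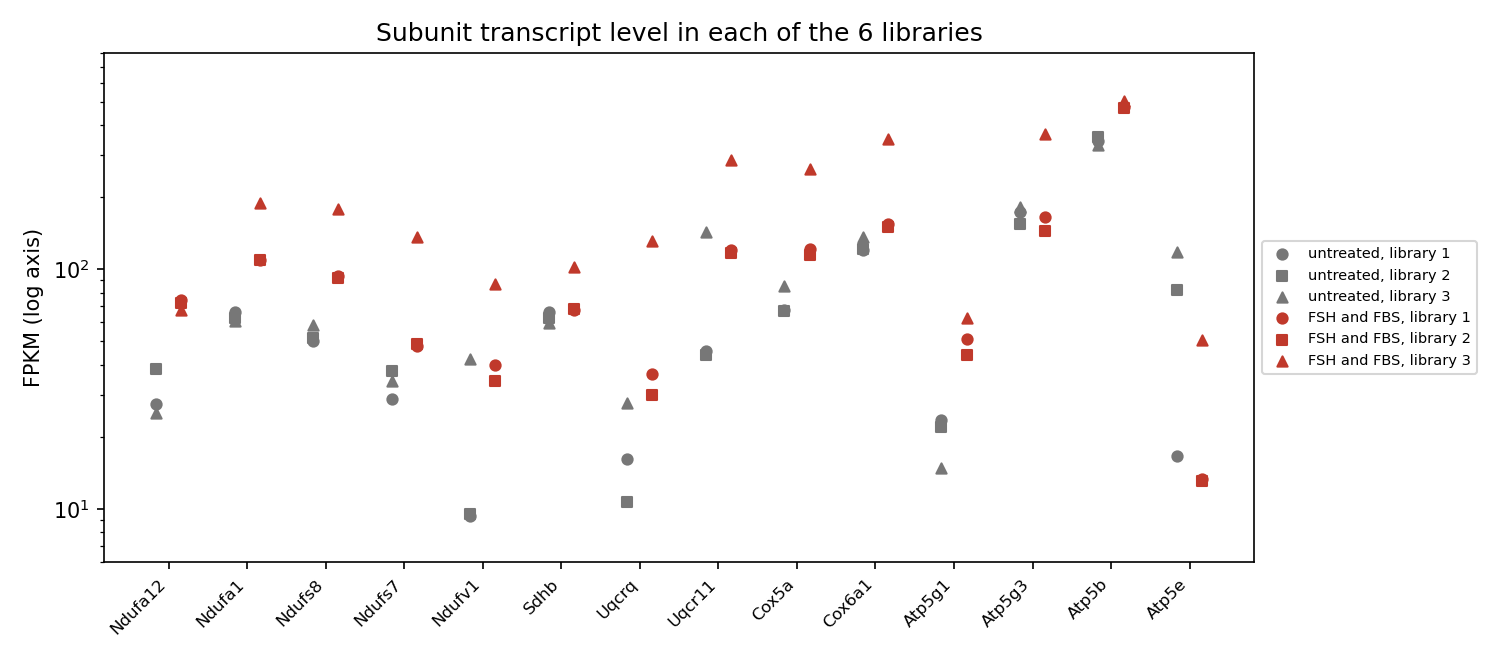
FPKM on a log axis of 14 members in each of the 6 libraries, untreated in grey and treated in red, with circles, squares and triangles for libraries 1, 2 and 3. Treated library 3 is the highest point for most of them, while for Ndufa12 and Atp5b the 3 libraries of a group lie close together.

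ATP synthase had a median of 0.44 over 16 members, 0.20 above that of all genes, with 14 positive. The catalytic head was even across libraries: Atp5b was at 476, 473 and 502 FPKM in treated and 345, 357 and 330 FPKM in untreated libraries, and Atp5a1, the alpha subunit, at 204, 196 and 226 FPKM against 190, 160 and 158 FPKM. In both the groups did not overlap. Their log2 fold changes were 0.52 ± 0.45 and 0.35 ± 0.40 (limma adjusted p = 0.62 and 0.71). Atp5e, the epsilon subunit of the central stalk, was at 13.3, 13.1 and 50.5 FPKM against 16.5, 82.2 and 118 FPKM. Untreated libraries 1 and 2, which otherwise nearly repeat each other, were far apart for this gene, and the groups overlap. Its log2 fold change was -1.51 ± 0.65 (limma adjusted p = 0.30; 0.0076 with the block). Left-out libraries moved it. It was -2.44 without treated library 3 and -0.90 without untreated library 3, fits that leave 1 sample in that group. It was -0.75 when untreated library 2 was left out (limma adjusted p = 0.725). All 6 libraries as separate replicates gave an adjusted p of 0.082 with the block.

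Atp5g1, Atp5g2 and Atp5g3 encode the same mature c subunit, which forms the membrane ring, and differ in their import sequences. Atp5g1 was at 51.2, 43.8 and 62.5 FPKM in treated and 23.4, 21.9 and 14.9 FPKM in untreated libraries. The lowest treated library lay well above the highest untreated one. The group means were 55.0 ± 10.7 and 18.8 ± 5.52 FPKM (SD, n = 2), and the log2 fold change of 1.52 ± 0.38 had the smallest p of all members (limma adjusted p = 0.090; 0.0076 with the block). Atp5g3, which had the higher level in every library, was at 165, 145 and 367 FPKM against 173, 155 and 181 FPKM. Its groups overlap, with -0.08 in libraries 1 and 2 and 1.014 in library 3. The symbol Atp5g2 had no rows. Last-exon events at its position carry the identifier of Mir688, at 51.1, 58.7 and 49.6 FPKM against 80.9, 56.9 and 37.1 FPKM, and were not counted as a member. Atp5j, coupling factor 6 of the peripheral stalk, had -0.15 ± 0.42, and Atp5k, subunit e of the membrane part, 0.66 ± 0.52. Atpif1, the inhibitor that binds ATP synthase when the membrane potential falls and is no subunit, was at 251, 246 and 342 FPKM against 341, 332 and 499 FPKM (-0.49 ± 0.48, limma adjusted p = 0.65).

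The size of the change depended on library number. The median log2 fold change of the members was 0.18 in libraries 1 and 2, near the 0.14 of all genes, and 0.84 in library 3, against 0.35 for all genes. By complex, the medians in libraries 1 and 2 and in library 3 were 0.31 and 0.95 for complex I, 0.04 and 0.25 for complex II, 0.27 and 0.65 for complex III, 0.19 and 0.79 for complex IV, and 0.17 and 0.58 for complex V. The library 3 change was the larger one in 64 of 72 members and in 5869 of 9022 genes. Positive changes numbered 56 of 72 members in libraries 1 and 2 and 68 in library 3, against 5496 and 6266 of 9022 genes.

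**Figure D3:**
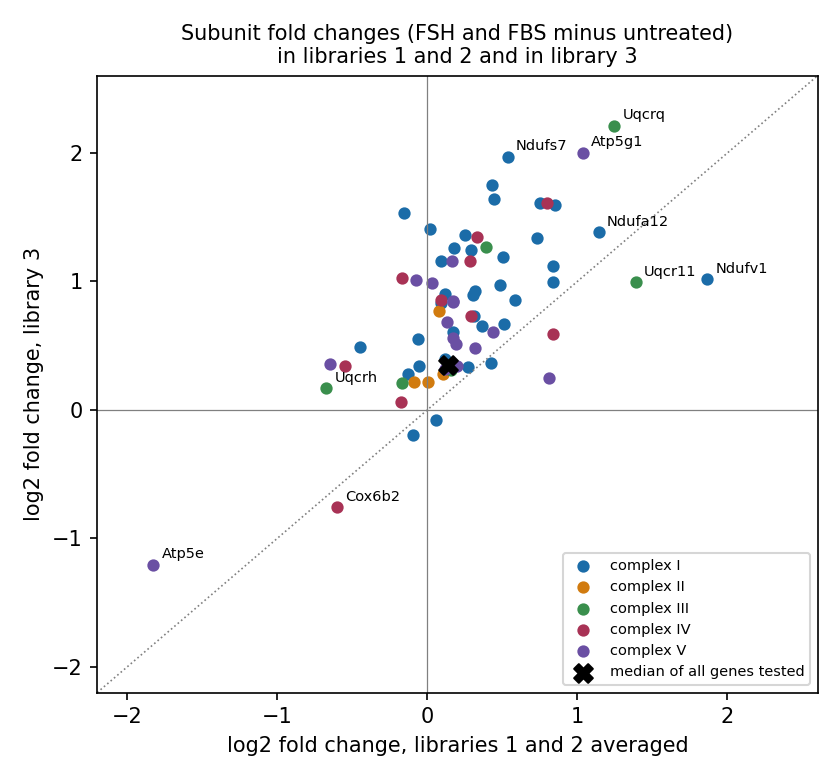
Log2 fold change in libraries 1 and 2, averaged, on the horizontal axis and in library 3 on the vertical axis, 1 point per member, coloured by complex, with the median of all genes tested as a cross (0.14 and 0.35). The dotted line marks equal change, and 64 of 72 members lie above it, with Ndufv1 and Uqcr11 among those below.

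Treated library 3 was the highest of the 6 libraries for 60 of 72 members (83.3%), against 34.5% of all genes. Over libraries 1 and 2 of its group, the members were higher in it by a median of 0.94 on the log2 scale, where all genes had -0.03. In untreated cells the same contrast gave 0.36 for members and -0.21 for all genes. In treated cells, 34 members (47.2%) and 7.75% of all genes were more than 1 log2 unit higher in library 3. By the values given above, Ndufs1, Sdha, Atp5a1 and Atp5b differed little between these libraries, while Ndufa2 went from 130 and 130 to 482 FPKM and Ndufb7, both small accessory subunits, from 77.8 and 72.2 to 291 FPKM. Cytosolic ribosomal protein genes (59) had a median of 1.06 in the same contrast.

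Exon length moved with this difference. The first plus last exon of members measured 418 bases at the median, against 1370 bases over all genes, and 54 of the 67 members with a measured length fell in the lowest quartile of genes by this length. Genes of that quartile had a median library 3 difference of 0.34 in treated cells and those of the highest quartile -0.38. Members of the lowest quartile had 1.06. Genes of the lowest quartile thus differed in the same direction as the members and by less. Atp5g1, the member with the smallest p, had the longest first plus last exon among the 67, at 4481 bases. The part of exon length in the group comparison was not tested. The ribosomal protein genes, with a median of 332 bases, had a log2 fold change of -0.27 between groups where the members had 0.51.

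**Figure D4:**
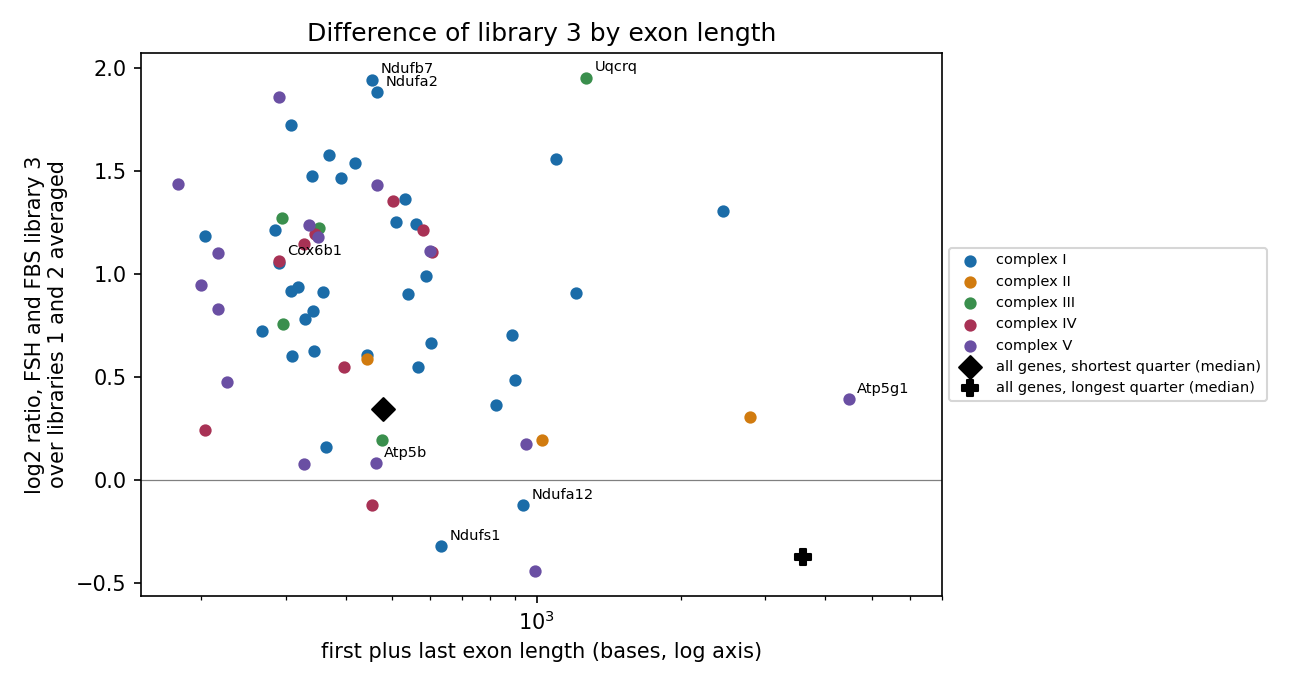
Log2 ratio of treated library 3 over libraries 1 and 2 against the length of first plus last exon (log axis) for 67 members, coloured by complex. The diamond and the plus mark the medians of all genes in the lowest (0.34) and the highest quartile of length (-0.38), and most members lie above the diamond.

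Genes that build or serve the chain were counted in the same fit. None of the 13 subunits encoded by mitochondrial DNA had rows, so the nuclear and mitochondrial parts could not be compared here. Assembly factors, which insert cofactors and join subunits, had a median log2 fold change of 0.54 over 42 tested genes, with 39 positive and 0 called. Cmc2, which is linked to complex IV biogenesis, Tmem70 of ATP synthase assembly and Cox18, an inner membrane insertase, had the smallest adjusted p. The adjusted p of Cox18 was 0.25, and 0.030 with the block in limma. Cmc2 was at 7.70, 4.27 and 12.2 FPKM against 2.16, 2.27 and 3.56 FPKM (1.33 ± 0.44, limma adjusted p = 0.20; 0.0054 with the block). Tmem70 was at 21.3, 21.6 and 19.4 FPKM against 9.38, 11.2 and 10.2 FPKM (0.93 ± 0.34, adjusted p = 0.23; 0.038 with the block). The groups of these 2 genes did not overlap. Mitochondrial ribosomal proteins had a median of 0.50 over 71 genes, with 69 positive and 0 called, and Mrpl42 had the smallest adjusted p (1.28 ± 0.36, adjusted p = 0.13; 0.024 with the block).

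Electron carriers and coenzyme Q enzymes had a median of 0.57 over 14 genes, with 13 positive and 0 called. Coq3, a methyltransferase of coenzyme Q synthesis, was at 8.76, 9.66 and 9.84 FPKM against 4.28, 4.05 and 3.69 FPKM (1.10 ± 0.35, limma adjusted p = 0.18; 0.014 with the block). Cycs, cytochrome c, was at 37.7, 36.8 and 58.5 FPKM against 28.1, 27.7 and 26.3 FPKM (0.76 ± 0.37, adjusted p = 0.35). Both kept the groups apart in all libraries. Carriers, porins and uncoupling proteins had a median of 0.48 over 7 genes with 0 called. Ucp2, an inner membrane carrier, was at 40.9, 41.4 and 100 FPKM against 16.96, 23.3 and 25.9 FPKM (1.46 ± 0.47, adjusted p = 0.18; 0.011 with the block).

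Regulators of mitochondrial biogenesis and of mitochondrial DNA expression had a median of 0.43 over 17 genes with 0 called. Nrf1, a transcription factor of many subunit genes, was at 8.91, 9.37 and 9.28 FPKM against 12.2, 13.0 and 6.59 FPKM, which overlap (0.01 ± 0.40), with its sign depending on the alternative. Tfam, which packages and transcribes mitochondrial DNA, had 0.50 ± 0.35 (limma adjusted p = 0.54). Ppargc1a, the coactivator of biogenesis, had no rows in any library.

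Of the lists around the chain, the TCA cycle and pyruvate dehydrogenase list held 1 called gene of 21 and the list of genes known to respond to low oxygen 2 of 12, against 2.37% of all genes. In the TCA cycle and pyruvate dehydrogenase list (21 tested, median 0.41, 18 positive), 0 genes were called higher and 1 lower. Pdk4, the kinase that shuts pyruvate dehydrogenase, fell from 48.5, 37.3 and 21.0 FPKM in untreated libraries to 3.72, 3.85 and 1.03 FPKM (-3.32 ± 0.53, limma adjusted p = 0.020). Pdk1 of the same family was at 1.60 and 1.28 FPKM in treated libraries 1 and 2 and 1.37 to 1.499 FPKM in untreated libraries, and was unlisted in treated library 3. In the low-oxygen list, 2 of 12 tested genes were called higher, with 12 positive and a median of 1.02. Ndrg1, a stress-response gene, rose to 23.0, 36.5 and 32.7 FPKM from 6.25, 6.46 and 6.27 FPKM (2.14 ± 0.34, adjusted p = 0.020). Ero1l, an oxidase of the endoplasmic reticulum, rose to 58.4, 45.3 and 31.6 FPKM from 9.03, 10.2 and 8.89 FPKM (2.02 ± 0.38, adjusted p = 0.034). Vegfa, the angiogenic growth factor, was at 146, 151 and 64.6 FPKM against 23.1, 23.6 and 8.81 FPKM and did not pass (2.68 ± 0.55, adjusted p = 0.053; it passed with the block). With libraries scaled to equal sums none of the called 3 passed (limma adjusted p = 0.059 for Pdk4, 0.084 for Ndrg1 and 0.17 for Ero1l). Without treated or untreated library 3 only 1 sample was left in that group, so calls in those fits are not given.

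The tables also list first exons and retained introns. For 65 members with a first exon in all 6 libraries, the strongest start was the same within 10 bases in all libraries for 59 (90.8%), against 72.7% of all genes, and 1 start held more than 90% of the first-exon signal in every library for 55 (84.6%), against 60.5%. Among the 6 members whose strongest start varied were Cox7b and Ndufs7. Of 382 introns (in 316 genes) with a retained and a spliced form in all libraries and a mean of at least 10 FPKM, 2 lay in members. In Uqcrc1 the retained share of the intron was 0.694%, 0.0772% and 0.746% in treated and 3.51%, 2.71% and 1.35% in untreated libraries, lower in all 3 treated libraries. The same order was found in 78 of the 382 introns, and the opposite order in 5.

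The promoters of the members were searched for motifs of factors known to act on respiratory genes, in the 250 bases before the RefSeq start (assembly GRCm38.p6), on both strands. Promoters matched for 60 of the 72 members tested and for 7213 genes tested. The NRF1 core GCGCATGC occurred in 7 members (11.7%), in 5.06% of genes tested and in 2.32% of all 27025 promoters. The ETS core CCGGAAG, which GABPA binds, occurred in 11 members (18.3%), in 15.8% of genes tested and in 7.05% of all promoters. The SP1 box GGGCGG occurred in 23 members (38.3%), in 63.1% of genes tested and in 32.9% of all promoters, and the YY1 core AAGATGGC in 0 members, in 2.43% of genes tested and in 1.59% of all promoters. Members with the NRF1 core had a median log2 fold change of 0.62 and those without 0.52, and the 11 with the ETS core had 0.52, as had the 49 without. A match is a description of these letters and not of binding. The promoters given here are those of the members that held both the NRF1 and the ETS core, Atp5l (chr9:44920743-44920992, minus strand) and Cox6a1 (chr5:115348959-115349208, minus strand), and of those with the smallest p, Atp5g1 (chr11:96075632-96075881, minus strand) and Ndufa12 (chr10:94198785-94199034, plus strand). Each is written 5′ to 3′ on the gene's strand, from RefSeq, with matches to any of the 4 motifs in capitals.
Atp5l: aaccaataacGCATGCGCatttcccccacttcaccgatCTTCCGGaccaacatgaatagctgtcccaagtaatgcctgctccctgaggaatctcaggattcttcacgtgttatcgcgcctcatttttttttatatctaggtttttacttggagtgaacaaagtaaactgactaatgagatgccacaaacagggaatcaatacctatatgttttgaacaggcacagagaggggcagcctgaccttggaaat
Cox6a1: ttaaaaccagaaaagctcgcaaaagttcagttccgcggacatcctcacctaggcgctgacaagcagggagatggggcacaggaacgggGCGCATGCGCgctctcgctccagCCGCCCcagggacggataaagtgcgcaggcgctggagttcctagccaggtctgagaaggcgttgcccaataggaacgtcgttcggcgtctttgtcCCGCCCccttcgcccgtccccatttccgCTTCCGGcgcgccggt
Atp5g1: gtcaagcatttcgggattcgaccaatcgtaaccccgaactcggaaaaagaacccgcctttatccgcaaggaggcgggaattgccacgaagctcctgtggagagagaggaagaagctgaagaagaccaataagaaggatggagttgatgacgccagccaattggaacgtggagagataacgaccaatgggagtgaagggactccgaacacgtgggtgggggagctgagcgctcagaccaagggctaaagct
Ndufa12: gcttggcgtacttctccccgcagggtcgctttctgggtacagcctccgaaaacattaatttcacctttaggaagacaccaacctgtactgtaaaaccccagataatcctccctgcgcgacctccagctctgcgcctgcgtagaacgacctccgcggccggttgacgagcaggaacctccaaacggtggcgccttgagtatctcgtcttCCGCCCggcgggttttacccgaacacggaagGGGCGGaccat

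Cox6a1 held its NRF1 match as a palindrome-like overlap of both strands starting 162 and 160 bases before the start, with an ETS match 16 bases and SP1 boxes 139 and 44 bases before it. Atp5l held the NRF1 match at 240 and the ETS match at 212 bases before the start. Ndufa12 held SP1 boxes at 42 and 11 bases, and the Atp5g1 window held none of the 4 motifs. These positions are counted from the RefSeq start, which can differ from the start used in these cells. The strongest first exon began 80 bases from the nearest RefSeq start for Ndufa12, 39 for Atp5g1 and 0 for Atp5l. No distance was at hand for Cox6a1. It was within 10 bases for 20 of 53 members (37.7%), against 45.2% of genes tested, and within 100 bases for 48 (90.6%), against 77.6%. Atp5g1 and Ndufa12 held neither the NRF1 nor the ETS core in this window. Of the 60 members tested with a promoter, 16 (26.7%) held the NRF1, ETS or YY1 core, against 21.9% of genes tested.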

How the data were processed

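The deposited tables of 6 RNA libraries hold FPKM per transcript event, per the file headers (first exons, last exons and splicing events). HISAT2 2.0.1 is named in the submitters' processing notes; the genome build, the assembler and its filters are not given in the sources used here. No event is listed at 0, so an unlisted gene was treated as missing. Symbols matched 13281 of 13318 gene identifiers. A gene's value was computed on its stronger strand.

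Genes in every library whose mean reached 1 FPKM (9022) were tested two-sided on log2(FPKM + 1) with limma 3.58.1 (R 4.3.3, intensity trend) and p-values adjusted over all of them by Benjamini-Hochberg; fold changes on this scale understate the change of low genes. Errors of log2 fold changes are SE. The fit was run on simulated samples with independent noise and no difference of library 3, so that run did not cover the effect of library 3. Same-numbered libraries deviated together (r = 0.32, 0.31 and 0.51 over genes for numbers 1, 2 and 3, which come from the sample titles). Treated 1 with untreated 2 and treated 2 with untreated 1 did so as much (r = 0.31 and 0.33), so the numbers separate only library 3 from libraries 1 and 2. Fits with the replicate number as a block are given as well.

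Members and gene lists were chosen with earlier results of these data known. Named members were the 2 highest and 2 lowest fold changes in each complex, all of complex II and isoform partners; named genes of other lists were those called, at most 3 of smallest adjusted p, and Ppargc1a, Tfam, Nrf1, Cycs, Pdk1, Pdk4 and Ucp2. Ndufa1, Ndufa2, Ndufb7, Ndufc1, Ndufs1, Ndufs3, Ndufs7, Ndufs8, Ndufv2, Uqcr10, Uqcrb, Uqcrc1, Cox7b, Cox7c, Atp5a1, Atp5b, Atp5l and Atp5s were named after their values were seen; 1 member is not reported here. Scalings, pseudocounts, level filters, exon choices and left-out libraries were tried as alternatives.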

Additional observations from a re-analysis of the deposited data

How the results depend on the processing

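With all 6 libraries as separate replicates, 1323 of 9022 genes and 4 of 72 members were called, and 2100 and 14 with a replicate block added. With the block on averaged samples, 1447 and 11 were called. Libraries 1 and 2 nearly repeat each other, so fits that count them separately take near repeats as independent samples. Equal sums gave 104 genes, median of ratios 91 and first exons alone 63. Leaving out 1 library gave 101 genes (without untreated library 3) to 384 (without treated library 3), and 0 to 1 members (Atp5e, without treated library 3). Another alternative, chosen after seeing the data, left out both libraries 3 and took libraries 1 and 2 as separate replicates. It called 3793 of 9022 genes and 31 of 72 members (27 higher, 4 lower). The share of members was near that of all genes, and the spread was only that between near repeats. With unlisted genes as 0, 1 member was called, Cox7a2l, which was lower in treated cells. Its unlisted value in treated library 2 then entered as 0 and was averaged with 28.1 FPKM in treated library 1. Untreated libraries 1 and 2, also averaged, were far apart, at 4.34 and 140 FPKM. The cause of the group difference was not tested.

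Among complex medians, complex II was -0.15, -0.11 and -0.22 under equal sums, median of ratios and quantiles; complex III 0.23 under equal sums, 0.12 under quantiles and 1.01 with last exons alone; complex V 0.13 and 0.012 under equal sums and quantiles. Left-out libraries gave 0.15 to 0.85 for complex I, 0.073 to 0.21 for II, 0.29 to 0.54 for III, -0.13 to 0.77 for IV, -0.090 to 0.59 for V and 0.10 to 0.71 for all members, each lowest without treated library 3.

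Of 36 named members, 20 kept their direction in all 20 alternatives. Under equal sums and median of ratios, these turned: Uqcrc2 (-0.28, -0.25), Uqcrc1 (-0.070, -0.033), Sdhc (-0.23, -0.19), Sdhd (-0.19, -0.15), Sdha (-0.11, -0.071) and Ndufs1 (-0.038, -0.0037). Under quantiles, Uqcrc2 (-0.40), Sdhd (-0.29), Sdhc (-0.24), Sdha (-0.20), Uqcrc1 (-0.16), Atp5a1 (-0.090), Ndufs1 (-0.056), Cox7a2 (-0.048), Sdhb (-0.016) and Atp5g3 (-0.0007) turned. First exons alone turned Atp5j (0.35). Separate replicates, with or without the block, turned Ndufa6 (0.012) and Uqcrc2 (-0.049). Without both libraries 3, Uqcrc2 (-0.18), Cox7a2 (-0.17), Atp5g3 (-0.079), Sdhc (-0.071) and Ndufa6 (0.057) turned. With 1 library left out, the ranges that crossed 0 were -0.18 to 0.44 for Cox7a2, -0.15 to 0.54 for Atp5g3, -0.090 to 0.89 for Cox4i2 and -0.052 to 0.88 for Atp5k (turned without treated library 3); -0.090 to 0.20 for Sdhc (treated 3, untreated 2); -0.044 to 0.42 for Ndufs1 and -0.66 to 0.0021 for Cox6c (untreated 3); -0.31 to 0.36 for Ndufa6 (untreated 1 and 3); -0.59 to 0.15 for Ndufa13 (treated 1, untreated 3); and -0.26 to 0.11 for Uqcrc2 (treated 2, untreated 3). None of these members was called in the adjusted test. Pdk4, Ndrg1 and Ero1l kept their directions (-3.84 to -2.28, 1.68 to 3.19 and 1.41 to 2.37). Leaving aside fits with 1 sample in a group, they lost their calls with first exons alone and under equal sums. Ndrg1 and Ero1l also lost them under median of ratios (limma adjusted p = 0.054 and 0.087). Ero1l lost its call under quantiles and with unlisted genes as 0 as well (limma adjusted p = 0.090 and 0.057).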
